A study of Mus musculus with 32 samples.

Results

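The Nr4a family consists of 3 genes for nuclear receptors, Nr4a1 (Nur77), Nr4a2 (Nurr1) and Nr4a3 (Nor1). Their transcripts were followed across 32 RNA sequencing libraries of mouse CD4+ T cells, which include helper and regulatory cells. The members are the 3 rows with these symbols among the 24302 genes of each count table, selected by name. The family was chosen with earlier results of these data known. Cells were taken from spleen plus inguinal and axillary nodes of C57BL/6J mice, and the 8 groups hold 4 libraries each. The genotype label is wild type (WT) or Nur77KO, called KO-labelled here. Each genotype has a group of unstimulated cells, which the labels call control, and a group given antibodies to CD3 and CD28 for 12 h as a stand-in for antigen and costimulation. In a further group of each genotype the same stimulation was given with XCT790, which acts as an inverse agonist on ERR-alpha (estrogen-related receptor alpha), at 10 µg/ml, and in the last with a compound coded CompA at 10 µg/ml. The construction of the Nur77KO allele, the number of animals and the vehicle given to stimulated cells without a compound are not stated in these labels. They also do not say whether the 4 libraries of a group derive from different mice. The p-values therefore rest on spread between libraries that may be technical.

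NR4A proteins bind DNA as transcription factors without a known physiological hormone, and their activity is set mainly by how much of them is made. T cell receptor signals switch the genes on quickly through calcium, calcineurin, NFAT and MEF2 factors, and Nr4a1 is widely used as a reporter of the strength of that signal. In CD4+ T cells the family is known for roles in regulatory T cells, tolerance and exhaustion, and in the death of self-reactive thymocytes.

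In the GRCm38 annotation (GENCODE) Nr4a1 lies on the plus strand of chromosome 15 from 101254269 to 101274795 and its exons cover 2.68 kb. Nr4a2 lies on the minus strand of chromosome 2 from 57106830 to 57124003 with 3.74 kb of exons, and Nr4a3 on the plus strand of chromosome 4 from 48045153 to 48086447 with 5.72 kb. No other gene of the basic annotation overlaps any of them, and all 3 passed the filter on low counts. The sequences before the starts used by the RefSeq promoter table (build GRCm38.p6) are shown because all 3 members rose with stimulation in both genotypes. All 3 also hold repeated cores of the cAMP response element (CRE), the DNA element of CREB and ATF factors. Capitals mark the letters TGACG on either strand. The Nr4a1 stretch, chr15:101266596-101266845 on the plus strand, lies within the gene as GENCODE and RefSeq draw it, since longer transcripts begin upstream, but outside the GENCODE exons. That of Nr4a2, chr2:57124004-57124253 on the minus strand, lies in no annotated gene, and that of Nr4a3, chr4:48045055-48045104 on the plus strand, spans the first base of the gene in RefSeq, 48045078. The table's start for Nr4a3, 48045305, lies downstream, and of the 250 bases before it 227 belong to the RefSeq gene and 152 to a 5′ UTR exon in GENCODE.
Nr4a1: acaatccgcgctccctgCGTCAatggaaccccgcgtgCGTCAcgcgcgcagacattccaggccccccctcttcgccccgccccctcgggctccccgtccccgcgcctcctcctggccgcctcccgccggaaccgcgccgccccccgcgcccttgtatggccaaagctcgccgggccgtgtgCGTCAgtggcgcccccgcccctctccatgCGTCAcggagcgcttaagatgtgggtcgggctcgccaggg
Nr4a2: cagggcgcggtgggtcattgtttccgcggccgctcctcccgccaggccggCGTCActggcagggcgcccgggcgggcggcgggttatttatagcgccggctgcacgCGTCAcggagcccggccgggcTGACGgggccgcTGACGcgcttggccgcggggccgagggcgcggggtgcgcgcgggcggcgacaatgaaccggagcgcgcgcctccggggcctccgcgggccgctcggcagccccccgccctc
Nr4a3: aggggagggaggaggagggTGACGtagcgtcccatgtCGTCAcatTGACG

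Each gene had 4 CRE cores in the window from 250 bases before to 50 bases after its start, and the remaining 1 of Nr4a3 lies beyond the printed stretch, at 147 bases before the start. Relative to the first base of the RefSeq gene, 3 of the 4 cores of Nr4a3 and all 4 of Nr4a1 begin downstream, and none of Nr4a2. Of 32817 mouse promoters of the same length in the RefSeq table, 20.8% held at least 1 such core and 0.232% (76 promoters) held at least 4. Base composition differs among promoters. The 3 windows were 72.3% (Nr4a1), 81.7% (Nr4a2) and 64.7% (Nr4a3) G and C, and of the 6007 promoters with at least 65% G and C, 0.533% held at least 4 cores. Nr4a3 lies just below that cut and Nr4a2 well above it, so the share is not matched to the composition of each window. The longer palindrome TGACGTCA, which contains the core on both strands, was in none of the 3 windows and in 1.79% of all promoters. An EGR factor motif, GCGNGGGCG on either strand, matched once each in Nr4a1 and Nr4a2 and in 5.56% of all promoters. A MEF2 motif matched in Nr4a2 and in 3.19% of promoters. The AP-1 motif TGANTCA (7.81% of promoters), the CArG box of serum response factor (1.63%) and the NR4A proteins' own element AAAGGTCA (1.51%) had no match in these windows. The GC box GGGCGG had 3 matches in Nr4a1, 5 in Nr4a2 and 1 in Nr4a3, and matched in 35.6% of promoters. The NFAT core GGAAA had 1 match in Nr4a2, none in Nr4a1 or Nr4a3, and matched in 61.3% of promoters. The CRE core was thus not the only motif found in all 3 windows. These matches describe letters, not measured binding.

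**Figure D1:**
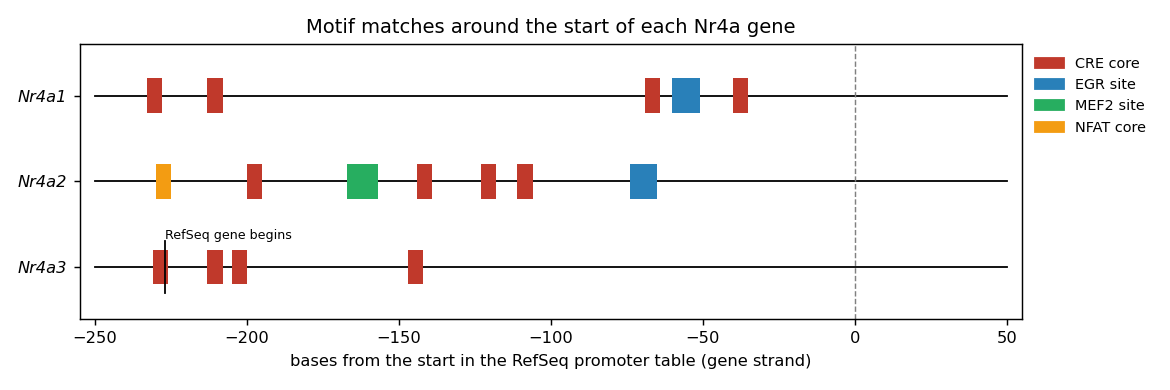
Matches to 4 motifs in the window from 250 bases before to 50 bases after the start of each gene in the RefSeq promoter table, with the distance in bases on the gene's own strand. Boxes are drawn to scale, each gene shows 4 CRE cores (red) before that start, and the black mark is the first base of the RefSeq gene Nr4a3, after which 3 of its cores begin.

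Library totals ran from 16020288 to 23687940 counts, with 13060 to 15148 genes detected. All 11 CD4 T cell markers had counts in every group. The stimulated WT libraries stood apart from the other stimulated groups in their content of macrophage and dendritic cell transcripts. The summed level of 23 such markers was 619 to 1847 CPM (read counts scaled to library size, as the cpm function of edgeR gives them) in them, against 10.9 to 40.8 CPM in the 5 other stimulated groups, where Cd209a was at 0 in both KO-labelled groups with a compound and Cd163 in the one with XCT790. In unstimulated cells it was 2832 to 4711 CPM in WT and 1069 to 2600 CPM in KO-labelled libraries. Sums of 8 CD8 T cell and NK cell markers were 28.4 to 125 CPM over all libraries. KO-labelled library 2 of each condition had the highest B cell marker sum of its group (932.6 CPM unstimulated, 301.2 CPM stimulated). Library numbers run from 1 to 16 in WT and from 25 to 40 in KO, so effects of that order and of genotype cannot be told apart. Consecutive numbers make 4 runs per genotype with 1 library of each condition. In bulk RNA, fewer cells of a type and less RNA per cell cannot be told apart.

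Nr4a1 is the gene named in the KO label, and its transcript was not lower in the KO-labelled libraries. Values below are CPM scaled by TMM (edgeR's factors for library composition), listed from run 1 to run 4. In WT, Nr4a1 stood at 45.2, 96.1, 66.7 and 78.6 CPM in unstimulated cells, and stimulated libraries had 130.5, 153, 174.7 and 207 CPM. In KO-labelled cells it stood at 86.2, 93.4, 87.2 and 109.8 CPM unstimulated and at 349.8, 506, 229 and 244 CPM stimulated. The genotypes overlapped before stimulation, and after it every KO-labelled library was above every WT library. With XCT790 the levels were 162, 178, 187 and 186 CPM in WT and 324, 364, 198 and 252 CPM in KO-labelled cells. With CompA they were 342, 329, 352 and 395 CPM in WT and 786, 520.3, 416 and 469.6 CPM in KO-labelled cells. KO-labelled libraries were again all above WT under either compound. A whole-gene count does not show whether the transcript encodes a complete protein.

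The spread of Nr4a1 changed with condition in both genotypes. Among stimulated KO-labelled libraries runs 1 and 2 were above runs 3 and 4 in all 3 conditions, and the highest library was 1.84 to 2.21 times the lowest. In WT that ratio was 1.59 after stimulation and 1.16 to 1.20 with a compound. In unstimulated cells the order was the other way, with 2.12 in WT and 1.27 in KO-labelled libraries. B cell marker sums in the stimulated KO-labelled libraries of runs 1 to 4 were 38.9, 301.2, 64.2 and 65.6 CPM, so runs 1 and 2, the highest in Nr4a1, held the lowest and the highest sums. Their part in the spread was not tested.

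Nr4a2, the member best known from dopamine neurons, was the scarcest transcript. Unstimulated WT libraries had 0.51, 1.37, 0.889 and 1.29 CPM, which rest on 8 to 31 counts, and KO-labelled libraries had 5.00, 3.38, 4.5 and 4.80 CPM from 77 to 128 counts. These groups did not overlap. After stimulation Nr4a2 reached 12.2, 6.10, 13.6 and 18.7 CPM in WT and 9.87, 18.3, 12.4 and 12.4 CPM in KO-labelled libraries, and the ranges overlapped. With XCT790 it stood at 15.1, 8.86, 18.2 and 15.0 CPM in WT and at 12.1, 14.2, 13.1 and 14.0 CPM in KO-labelled libraries. With CompA it stood at 14.8, 7.94, 15.8 and 17.8 CPM in WT and at 15.5, 18.7, 16.5 and 13.6 CPM in KO-labelled libraries. In WT, run 2 was the lowest in all 3 stimulated conditions although it was the highest before stimulation. The stimulated library of that run also held the highest macrophage and dendritic cell marker sum of its group, 1847 CPM. Under XCT790 and CompA the sums of run 2 were 15.6 and 17.8 CPM. The part of those cells in the Nr4a2 levels of run 2 was not tested.

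Nr4a3, which can stand in for Nr4a1 in thymocytes and regulatory T cells, was intermediate in counts. In unstimulated cells it stood at 4.01, 7.26, 6.06 and 6.72 CPM in WT and at 12.5, 12.8, 12.8 and 14.3 CPM in KO-labelled libraries, without overlap. Stimulation brought it to 53.6, 46.2, 59.0 and 85.4 CPM in WT and to 53.8, 67.7, 82.1 and 61.2 CPM in KO-labelled libraries. With XCT790 it was 58.8, 53.8, 63.3 and 74.3 CPM in WT and 65.2, 53.2, 60.5 and 59.2 CPM in KO-labelled libraries. The genotypes overlapped in both of these conditions. With CompA it was 134.6, 112.0, 146.8 and 169 CPM in WT and 140.5, 101.6, 145.6 and 110.4 CPM in KO-labelled libraries, and in each genotype every CompA library was above every library of the other conditions.

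**Figure D2:**
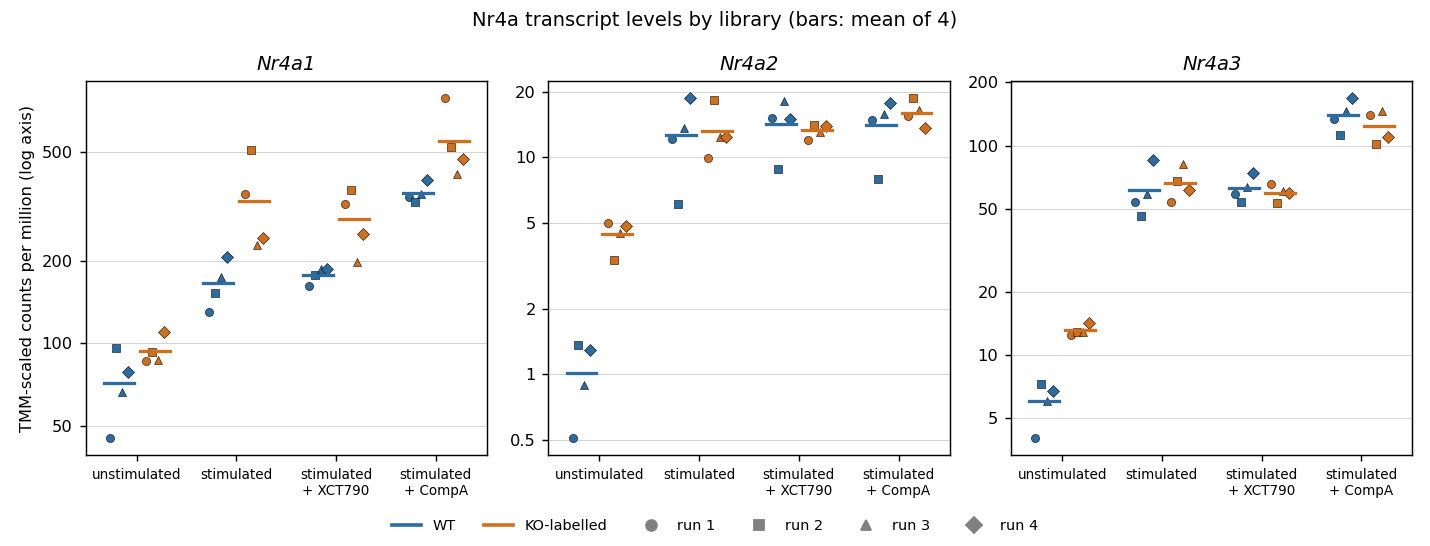
Level of each member in every library, in TMM-scaled CPM on a log axis, by condition and genotype, with the run as the symbol and the group mean as a bar. The KO-labelled libraries are above WT without overlap in unstimulated cells for Nr4a2 and Nr4a3 and in the 3 stimulated conditions for Nr4a1.

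The order of the 8 group means differed among the members. For Nr4a1 it ran from unstimulated WT (71.6 ± 21.4 CPM, SD, n = 4) to KO-labelled cells with CompA (548 ± 164.5 CPM), a 7.65-fold span. Of the neighbours in that order, unstimulated WT and KO-labelled cells overlapped, as did stimulated WT and WT with XCT790, and as did the sequence of KO-labelled cells with XCT790, KO-labelled stimulated cells and WT with CompA. The span of Nr4a2 was 15.8-fold, from 1.02 ± 0.398 CPM in unstimulated WT to 16.1 ± 2.14 CPM in KO-labelled cells with CompA. Its 6 stimulated groups, with means of 12.7 to 16.1 CPM, all overlapped their neighbours. Nr4a3 separated into 4 levels. Its means were 6.01 ± 1.42 CPM in unstimulated WT, 13.1 ± 0.791 CPM in unstimulated KO-labelled cells, 59.5 to 66.2 CPM in the stimulated groups without CompA and 124.5 to 140.5 CPM with CompA, with no overlap between levels.

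Before stimulation Nr4a2 and Nr4a3 stood higher in KO-labelled than in WT cells, and the difference of Nr4a1 did not pass the test. In the quasi-likelihood F test of edgeR across all genes, with Benjamini-Hochberg adjustment over 12332 tested genes and a call at an adjusted p under 0.05, 2 of the 3 members were called, against 36.1% of all genes (12.5% higher and 23.6% lower). Nr4a2 was 4.23-fold higher (log2 2.08 ± 0.33 SE, adjusted p = 4.8e-05) and Nr4a3 2.16-fold (log2 1.11 ± 0.19 SE, adjusted p = 0.00011). The log2 difference of Nr4a1 was 0.39 ± 0.23 SE (adjusted p = 0.17). Of the macrophage and dendritic cell markers 13 of 23 were lower in KO-labelled unstimulated cells (median log2 -0.93, all genes -0.08), and their part in these differences was not tested. Without WT library 1, which had the lowest level of all 3 members, 2060 in place of 4454 genes were called and both members stayed called.

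Stimulation raised all 3 members in both genotypes. In WT, where 73.3% of all genes were called, Nr4a2 rose 12.1-fold (log2 3.60 ± 0.32 SE, adjusted p = 8.7e-11), Nr4a3 10.1-fold (log2 3.33 ± 0.19 SE, adjusted p = 5.2e-15) and Nr4a1 2.32-fold (log2 1.21 ± 0.23 SE, adjusted p = 3.7e-05), by edgeR. In KO-labelled cells, with 81.7% of all genes called, Nr4a3 rose 5.05-fold (log2 2.34 ± 0.18 SE, adjusted p = 1.2e-12), Nr4a1 3.52-fold (log2 1.82 ± 0.23 SE, adjusted p = 4.6e-08) and Nr4a2 2.98-fold (log2 1.58 ± 0.27 SE, adjusted p = 7e-06). All 23 macrophage and dendritic cell markers fell in both genotypes (median log2 -1.84 in WT and -5.56 in KO-labelled cells). Among the 28 tested nuclear receptor genes, the members held ranks 1, 2 and 4 by rise in WT and ranks 1 to 3 in KO-labelled cells, while 18 of the 28 fell in WT and 17 in KO-labelled cells (38.8% and 42.4% of all genes fell). Ratios of stimulated to unstimulated CPM within a run were 4.45 to 23.9 for Nr4a2 in WT and 1.97 to 5.41 in KO-labelled cells. For Nr4a3 they were 6.36 to 13.4 in WT and 4.29 to 6.41 in KO-labelled cells, and for Nr4a1 1.59 to 2.89 and 2.22 to 5.42. Every run rose for every member.

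The rise differed between genotypes for Nr4a2 and Nr4a3. In the interaction of genotype and stimulation 2 of the 3 members were called, with 33.7% of all genes called. The rise in KO-labelled cells was smaller by 4.06-fold for Nr4a2 (log2 -2.02 ± 0.42 SE, adjusted p = 0.001) and by 1.99-fold for Nr4a3 (log2 -1.0 ± 0.25 SE, adjusted p = 0.0046). For Nr4a1 the interaction was log2 0.60 ± 0.32 SE (adjusted p = 0.14). Nr4a2 and Nr4a3 started higher in KO-labelled cells and ended at levels that overlapped WT. A share of the unstimulated profile retained by the stimulated WT libraries was estimated as 0.162 to 0.464. It came from 119 genes that fell to at most 1% of their unstimulated level in WT with either compound. The genes were chosen by that fall, and whether transcripts of the members were retained in the same share was not tested. Macrophage and dendritic cell markers moved with the interaction too (21 of 23 lower, median log2 -3.56). With that share subtracted the interactions were log2 -2.45 for Nr4a2 and -1.46 for Nr4a3.

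After stimulation without a compound Nr4a1 was the only member whose genotype difference was called. It was 2.00-fold higher in KO-labelled cells (log2 1.00 ± 0.23 SE, adjusted p = 0.0015, edgeR), while Nr4a2 differed by log2 0.06 ± 0.26 SE (adjusted p = 0.89) and Nr4a3 by 0.12 ± 0.17 SE (adjusted p = 0.64). The intervals of 2 SE, -0.47 to 0.58 for Nr4a2 and -0.22 to 0.45 for Nr4a3, leave room for differences of up to 1.5-fold and 1.37-fold. Of all genes 25.2% were called (7.31% higher). In this comparison 22 of 23 macrophage and dendritic cell markers were lower in KO-labelled cells (median log2 -4.70, all genes 0.00). Subtracting the estimated unstimulated share raised WT Nr4a1 to 206 ± 46.6 CPM and ended the call (log2 0.67, adjusted p = 0.0899), and without KO-labelled run 2 the difference was log2 0.72 (adjusted p = 0.0154).

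Under the compounds the genotype differences of Nr4a1 kept the sign but missed the threshold. With XCT790 it was log2 0.67 ± 0.23 SE (adjusted p = 0.059) and with CompA 0.63 ± 0.23 SE (adjusted p = 0.089), although in both conditions no KO-labelled library reached down to the WT range. None of the members was called with XCT790, where 9.51% of all genes were, or with CompA, where 7.7% were. Here the macrophage and dendritic cell marker sums were low in both genotypes, 10.9 to 19.7 CPM in WT and 17.6 to 40.8 CPM in KO-labelled cells. For Nr4a2 and Nr4a3 the log2 differences lay between -0.17 and 0.19. The Nr4a1 difference with XCT790 passed the threshold with upper-quartile factors, with library totals, in DESeq2, in a fit of those 2 groups alone and without KO-labelled library 3 (adjusted p = 0.0213 to 0.0478).

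No difference between XCT790 and stimulation alone passed the test for any member. None was called in WT, where 28.6% of all genes were called, or in KO-labelled cells, where 11.3% were (1390 genes, and 2642 with the run as a block). In WT the log2 differences from stimulation alone were 0.10 ± 0.23 SE (Nr4a1), 0.17 ± 0.26 SE (Nr4a2) and 0.03 ± 0.17 SE (Nr4a3). In KO-labelled cells they were -0.22 ± 0.23 SE, 0.01 ± 0.26 SE and -0.15 ± 0.17 SE in the same order. The tightest intervals were those of Nr4a3, from 0.812-fold to 1.29-fold in WT and from 0.713-fold to 1.13-fold in KO-labelled cells. Those of Nr4a1 and Nr4a2 on the log2 scale ran from -0.35 to 0.55 and from -0.35 to 0.70 in WT and from -0.68 to 0.23 and from -0.51 to 0.54 in KO-labelled cells. In WT 22 of 23 macrophage and dendritic cell markers were lower with XCT790 than without (median log2 -5.37), and once the estimated unstimulated share had been removed from stimulated WT libraries all 3 log2 differences were below 0 (-0.22, -0.25 and -0.42, smallest adjusted p = 0.128). The interaction of genotype and XCT790 called none of the members (24.7% of all genes called), with log2 values of -0.32 ± 0.32 SE (Nr4a1), -0.16 ± 0.37 SE (Nr4a2) and -0.19 ± 0.24 SE (Nr4a3). In it 18 of 23 macrophage and dendritic cell markers were called higher.

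CompA raised Nr4a1 and Nr4a3 above stimulation alone in both genotypes and the differences of Nr4a2 did not pass the test. In WT 2 of the 3 members were called, with 32.8% of all genes called and 11.6% higher. Nr4a3 rose 2.30-fold (log2 1.20 ± 0.17 SE, adjusted p = 2.1e-06, edgeR) and Nr4a1 2.13-fold (log2 1.09 ± 0.23 SE, adjusted p = 0.00046). In every run the CompA library was above the stimulated library for both genes, by 1.98 to 2.51 times for Nr4a3 and 1.91 to 2.62 times for Nr4a1. Nr4a2 differed by log2 0.15 ± 0.26 SE (adjusted p = 0.70). All 23 macrophage and dendritic cell markers were lower with CompA in WT (median log2 -5.32). With the unstimulated share subtracted, Nr4a1 was log2 0.77 (adjusted p = 0.0201) and Nr4a3 0.74 (adjusted p = 0.00187) above stimulation.

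KO-labelled cells, whose stimulated libraries held few macrophage and dendritic cell transcripts with or without CompA (marker sums of 19.8 to 40.8 CPM), gave the same 2 calls. Of all genes 19.3% were called (2378 genes, and 3635 with the run as a block) and 10.2% were higher. Nr4a3 rose 1.88-fold (log2 0.91 ± 0.17 SE, adjusted p = 0.00041) and Nr4a1 1.65-fold (log2 0.72 ± 0.23 SE, adjusted p = 0.024), and Nr4a2 differed by log2 0.28 ± 0.26 SE (adjusted p = 0.50), all by edgeR. CompA over stimulation within a run was 2.25, 1.03, 1.82 and 1.93 for Nr4a1. The Nr4a1 call was lost without stimulated library 1, 3 or 4 or CompA library 1 (adjusted p = 0.0514, 0.0784, 0.0847 and 0.143) and in a fit of the 2 groups alone (0.157), and without run 2 the rise was log2 1.02 (adjusted p = 0.00466). With the run as a block the Nr4a1 rise was log2 0.75 (adjusted p = 0.00217, edgeR). For Nr4a3 the within-run ratios were 2.61, 1.5, 1.77 and 1.8, and its call was kept in every alternative tried. The interaction of genotype and CompA called no member (21.6% of all genes called). Its log2 values were -0.37 ± 0.32 SE for Nr4a1, 0.13 ± 0.37 SE for Nr4a2 and -0.29 ± 0.24 SE for Nr4a3, and 18 of the 23 macrophage and dendritic cell markers were called higher.

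XCT790 and CompA were given at the same concentration by mass and for the same time, and comparing them does not use the stimulated WT libraries. Whether their doses match in molar concentration or potency was not tested. In WT 2 of the 3 members were called (9.41% of all genes, 1161 genes, and 2046 with the run as a block) and in KO-labelled cells the same 2 (3.24% of all genes, 400 genes, and 995 with the run as a block). With XCT790 Nr4a3 was lower than with CompA by 2.25-fold in WT (log2 -1.17 ± 0.17 SE, adjusted p = 3.3e-05, edgeR) and by 2.09-fold in KO-labelled cells (log2 -1.07 ± 0.17 SE, adjusted p = 0.00037). Nr4a1 was lower by 1.99-fold (log2 -0.99 ± 0.23 SE, adjusted p = 0.0051) and 1.93-fold (log2 -0.95 ± 0.23 SE, adjusted p = 0.017). In all 8 runs both genes were higher with CompA than with XCT790. Nr4a2 differed by log2 0.02 ± 0.26 SE in WT and -0.27 ± 0.26 SE in KO-labelled cells, with intervals of -0.50 to 0.55 and -0.79 to 0.25. The Nr4a1 call in KO-labelled cells was lost in a fit of the 2 groups alone and without CompA library 1 or XCT790 library 3 or 4 (adjusted p = 0.0544 to 0.0932). With the run as a block, which those fits leave out, it was kept (log2 -0.96, adjusted p = 0.00117, edgeR).

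**Figure D3:**
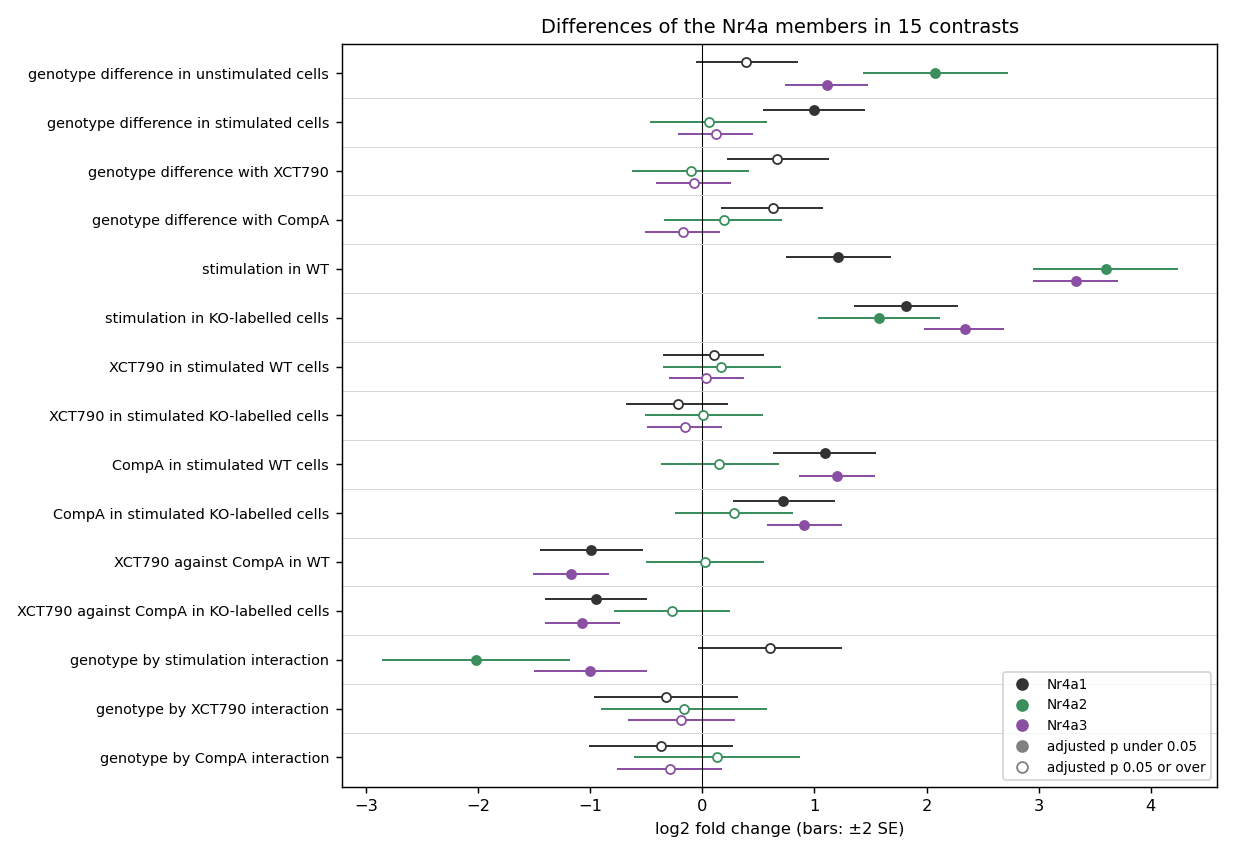
Log2 fold change of each member in the 15 contrasts with bars of 2 SE, filled where the adjusted p is under 0.05. All 3 members are filled in both stimulation contrasts, Nr4a1 and Nr4a3 in the contrasts with CompA within a genotype, and no member in those of XCT790 with stimulation alone. Contrasts that share a group, such as the stimulated WT libraries, are not independent.

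The mean share of Nr4a1 in the family was lower after stimulation than before in both genotypes, a description without a test. Per kilobase of exon, Nr4a1 supplied 95.3% ± 0.271 (SD, n = 4) of the family's counts in unstimulated WT and 91.0% ± 0.799 in unstimulated KO-labelled cells. After stimulation its share was 81.7% ± 2.87 in WT and 88.2% ± 4.30 in KO-labelled cells. The KO-labelled ranges overlapped, with 90.1% to 91.7% before stimulation and 82.9% to 91.9% after, and those of WT did not. Nr4a3 went from 3.80% ± 0.292 to 13.9% ± 1.64 in WT and from 5.95% ± 0.288 to 9.12% ± 3.74 in KO-labelled cells. Nr4a2 went from 0.943% ± 0.146 to 4.37% ± 1.32 in WT, and in KO-labelled cells it stood at 3.08% ± 0.592 before and 2.64% ± 0.652 after. With CompA the share of Nr4a2 was 2.31% ± 0.564 in WT, against 4.68% ± 1.185 with XCT790.

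**Figure D4:**
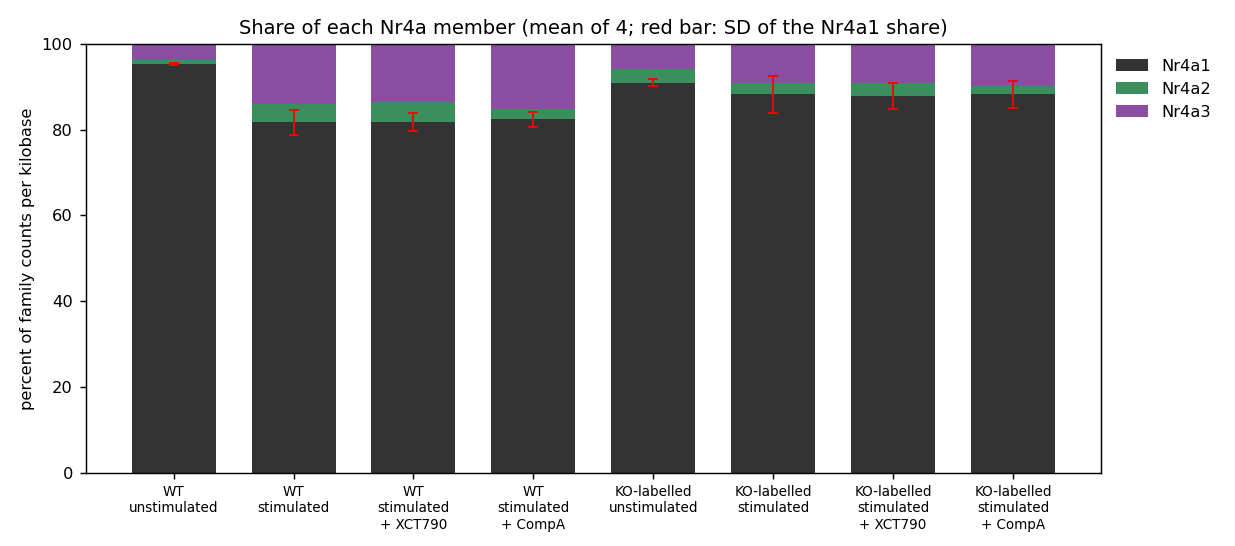
Share of each member in the family's counts per kilobase of exon, as the mean of 4 libraries per group, with the SD of the Nr4a1 share as a red bar. Nr4a1 makes up the largest part in every group, 95.3% in unstimulated WT and 81.7% to 82.5% in the stimulated WT groups.

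Ratios between members within a library do not depend on library scaling. In unstimulated cells all 3 ratios separated the genotypes without overlap. The mean log2 ratio of Nr4a1 to Nr4a2 counts was 6.14 ± 0.20 (SD, n = 4) in WT and 4.42 ± 0.29 in KO-labelled libraries. That of Nr4a1 to Nr4a3 was 3.55 ± 0.12 and 2.84 ± 0.08, and that of Nr4a2 to Nr4a3 was -2.59 ± 0.27 and -1.58 ± 0.25. Each had an exact two-sided permutation p of 0.0286, the smallest that 4 against 4 libraries can give, and 0.114 after adjustment over the 12 ratios tested. With that smallest p, 3 ratios alone cannot fall under 0.05 after this adjustment, however large their differences. The adjusted test therefore cannot decide whether the balance of the members differed between genotypes in unstimulated cells. In the 3 stimulated conditions the sign of the Nr4a1 to Nr4a3 difference was the opposite, with KO-labelled means 0.70 to 0.80 above WT on the log2 scale (exact permutation p = 0.0571 to 0.0857, adjusted 0.114) and ranges that overlapped. The Nr4a2 to Nr4a3 ratio was -2.34 in both genotypes after stimulation and -2.16 in both with XCT790.

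**Figure D5:**
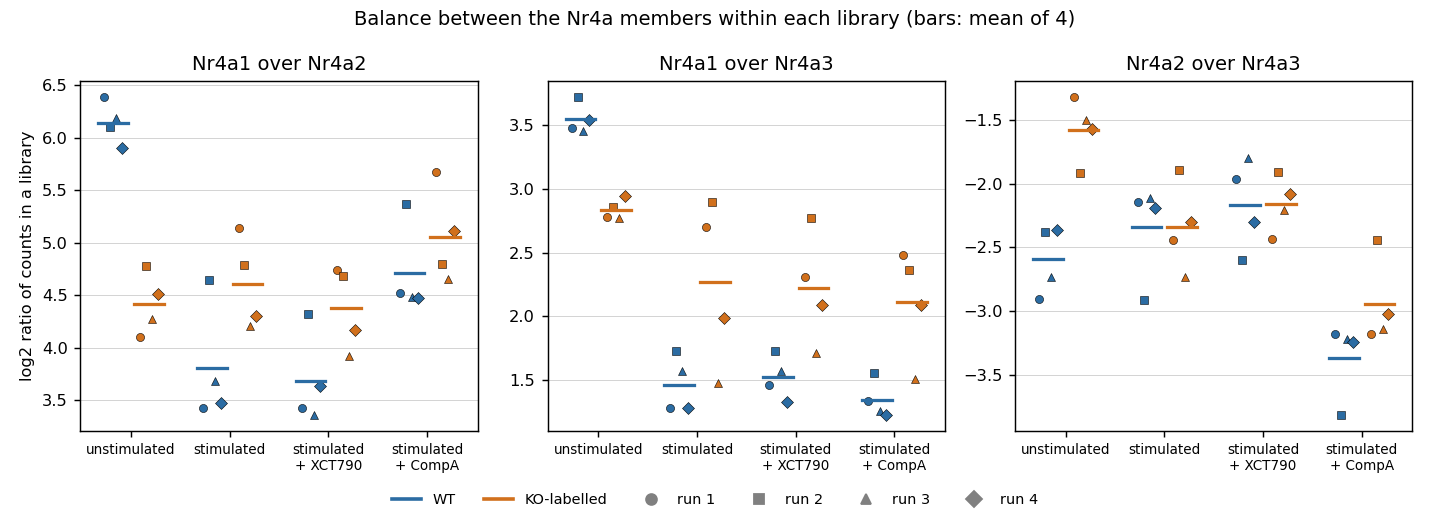
Log2 ratio of the counts of 2 members in each library, by condition and genotype, with the run as the symbol and the mean of 4 as a bar. In unstimulated cells the genotypes do not overlap, and with CompA the Nr4a2 to Nr4a3 ratio is lowest, with means of -3.36 in WT and -2.95 in KO-labelled libraries.

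Per kilobase of exon, Nr4a1 ranked 4 of 49 nuclear receptor genes in unstimulated WT (26.7 ± 7.97 CPM per kb), behind Nr1h2 (liver X receptor beta), Rxrb and the glucocorticoid receptor gene Nr3c1, and it ranked 2 in unstimulated KO-labelled cells (35.2 ± 4.08 CPM per kb). It ranked 1 in every stimulated group except WT with XCT790, where Nr1h2 stood at 67.8 and Nr4a1 at 66.6 CPM per kb. Nr4a3 moved from rank 19 to rank 6 with stimulation in WT and from 17 to 5 in KO-labelled cells, and it held rank 4 with CompA in both. Nr4a2 moved from rank 24 to 15 in WT and from 21 to 13 in KO-labelled cells. Rxra and Rxrb encode partners that can pair with NR4A1 and NR4A2. Rxra fell with CompA, from 47.6 ± 7.31 to 18.2 ± 1.83 CPM in WT (log2 -1.39, adjusted p = 8e-09) and from 36.6 ± 4.94 to 20.8 ± 2.1 CPM in KO-labelled cells (log2 -0.81, adjusted p = 0.0002, edgeR).

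Among 23 genes of the calcineurin, NFAT and MEF2 pathway that controls Nr4a1, 7 were higher and 1 lower in KO-labelled than in WT unstimulated cells (median log2 0.22, all genes -0.08; 12.5% of all genes higher and 23.6% lower). Nfatc1, the NFAT gene that is itself induced by activation, stood at 328 ± 21.04 against 159.7 ± 27.1 CPM (log2 1.04, adjusted p = 9.6e-07). Ppp3r1, the 1 lower gene, stood at 216.0 ± 7.93 against 303.6 ± 51.2 CPM (log2 -0.49, adjusted p = 0.00042, edgeR). Hdac7, a repressor of Nr4a1 in thymocytes, stood at 165.5 ± 3.48 against 102.6 ± 16.5 CPM (log2 0.69, adjusted p = 0.00059). Stimulation lowered more genes of this list than it raised, 3 higher and 11 lower in WT (median -0.34, all genes -0.11) and 3 higher and 16 lower in KO-labelled cells (median -0.85, all genes -0.08). Of all genes 34.5% rose and 38.8% fell in WT, and 39.3% rose and 42.4% fell in KO-labelled cells. Crem, a cAMP-responsive factor that binds the element whose core is marked above, rose from 14.3 ± 1.86 to 43.1 ± 2.78 CPM in WT (log2 1.59, adjusted p = 3.1e-12) and from 16.7 ± 1.22 to 94.5 ± 11.4 CPM in KO-labelled cells (log2 2.50, adjusted p = 7.8e-17). It was higher in KO-labelled cells in all 3 stimulated conditions (log2 1.13, 0.71 and 0.66, largest adjusted p = 0.0004). With CompA 5 genes of the list were higher and 1 lower in KO-labelled cells, where 10.2% of all genes were higher and 9.11% lower. In WT 2 of the 23 were higher and 4 lower, near the 11.6% and 21.3% of all genes.

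The immediate-early and T cell receptor reporter genes, 29 in number, give the company in which the members are usually induced. In unstimulated cells 11 were higher and 1 lower in KO-labelled than in WT cells (median log2 0.31, all genes -0.08), against 12.5% higher and 23.6% lower of all genes. Egr2, an activation-induced zinc finger factor linked to tolerance, stood at 31.9 ± 4.48 against 13.2 ± 2.74 CPM (log2 1.27, adjusted p = 1e-06) and Irf4, whose level follows receptor signal strength, at 45.9 ± 7.87 against 25.8 ± 3.51 CPM (log2 0.83, adjusted p = 2.4e-05). Stimulation raised 17 and lowered 9 in WT, and raised 18 and lowered 8 in KO-labelled cells, where the shares of all genes were 34.5% and 38.8% in WT and 39.3% and 42.4% in KO-labelled cells. After stimulation the list showed no common direction between genotypes, with 6 genes higher and 6 lower in KO-labelled cells (median log2 0.13, all genes 0.00; 7.31% of all genes higher and 17.9% lower). The 3 with the smallest adjusted p, Fos, Zfp36 and Jun, were among the lower ones, Fos at 8.82 ± 2.67 against 124.3 ± 76.9 CPM (log2 -3.83, adjusted p = 1.1e-10), opposite in sign to Nr4a1. Fos and Jun fell with XCT790 and with CompA in WT, where the macrophage and dendritic cell markers also fell. Dusp1, an immediate-early phosphatase gene, fell with CompA in WT (from 105.9 ± 59.0 to 14.0 ± 0.65 CPM, log2 -2.92, adjusted p = 3.1e-07). The part of those cells in these differences was not tested.

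Of 25 genes linked to NR4A receptors in T cell tolerance and exhaustion, 14 were higher and 2 lower in unstimulated KO-labelled cells (median log2 0.62, all genes -0.08), against 12.5% and 23.6% of all genes. Lag3, an inhibitory receptor, stood at 141.2 ± 41.5 against 28.7 ± 5.83 CPM (log2 2.30, adjusted p = 2.5e-07) and Tigit, another, at 69.2 ± 20.6 against 18.8 ± 3.91 CPM (log2 1.88, adjusted p = 2.1e-05). With XCT790 and with CompA 10 of the 25 were higher and 1 lower in KO-labelled cells, against 7.4% higher and 2.11% lower of all genes with XCT790 and 5.82% and 1.88% with CompA. After stimulation without a compound 6 were higher and 8 lower (median log2 -0.04, all genes 0.00), against 7.31% higher and 17.9% lower of all genes. Foxp3, the master factor of regulatory T cells, stood at 56.9 ± 18.6 against 21.4 ± 4.31 CPM with XCT790 (log2 1.41, adjusted p = 0.00064) and at 69.0 ± 22.6 against 23.7 ± 4.26 CPM with CompA (log2 1.55, adjusted p = 0.00024). No Nr4a gene was called in either of these comparisons. Stimulation lowered 15 of the 25 in each genotype and raised 7 in WT and 6 in KO-labelled cells, against 38.8% lowered and 34.5% raised of all genes in WT and 42.4% and 39.3% in KO-labelled cells. Il2ra, the alpha chain of the high-affinity interleukin-2 receptor, rose from 63.3 ± 15.1 to 351.5 ± 48.2 CPM in WT (log2 2.47, adjusted p = 1.8e-13).

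Of 19 apoptosis genes, included because NR4A1 can bind BCL-2 and promote death, 9 rose and 7 fell with stimulation in each genotype, not far from the shares of all genes (34.5% and 38.8% in WT, 39.3% and 42.4% in KO-labelled cells). Bcl2l1, which encodes the survival protein BCL-XL, rose from 32.5 ± 3.41 to 237.0 ± 33.6 CPM in WT (log2 2.87, adjusted p = 4.7e-17). Bcl2l11, which encodes the death inducer BIM, was lower in KO-labelled cells before stimulation (52.5 ± 3.10 against 81.6 ± 16.0 CPM, log2 -0.64, adjusted p = 0.0011), with XCT790 (log2 -0.54, adjusted p = 0.0095) and with CompA (log2 -0.65, adjusted p = 0.0023). Of 20 RXR partners and kinases of NR4A proteins, 6 rose and 9 fell with stimulation in WT and 6 rose and 12 fell in KO-labelled cells. In WT that is near the same shares of all genes.

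Levels of the 3 members correlated with one another over the 32 libraries, with Pearson's r on log2 CPM of 0.807 for Nr4a1 with Nr4a2, 0.889 for Nr4a1 with Nr4a3 and 0.923 for Nr4a2 with Nr4a3. The libraries share treatment, scaling and runs, so these values describe the set. Among 9068 tested genes whose highest group mean reached 10 CPM, the 5 most like Nr4a1 were Gadd45b, Tnf, Tpi1, Lta and Icam5 (r = 0.905 to 0.928). Those most like Nr4a2 were Spry1, Nfkb1, Egr2, Kdm2b and Slc4a7 (r = 0.955 to 0.963), and those most like Nr4a3 were Pfkp, Acot7, Sema7a, Ak4 and Gfm2 (r = 0.963 to 0.972). Gadd45b, a stress-response gene, had a mean of 56.6 CPM in WT against one of 124.5 CPM in KO-labelled cells after stimulation. Spry1, an inhibitor of growth factor signalling, had means of 13.6 and 44.4 CPM in unstimulated WT and KO-labelled cells and 230.7 and 270.5 CPM after stimulation. Pfkp, the platelet-type phosphofructokinase, had means of 224.6 CPM in stimulated WT cells, 247.6 with XCT790 and 370.2 with CompA. The leading names depend on the measure: by Spearman's rho 2, 1 and 1 of the 5 names were kept for Nr4a1, Nr4a2 and Nr4a3, and without the stimulated WT libraries 4, 5 and 4.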

How the data were processed

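RNA was sequenced from poly(A)-selected, directional libraries of mouse CD4+ T cells. The deposited values are raw read counts per gene, made by the authors with HTSeq 0.9.1 after Trimmomatic 0.36, HISAT2 2.1.0 and SAMtools on mm10, per the submitters' processing notes, which also name R 3.4.4 and DESeq2 1.18.1. The strand setting of the counting is not stated in these sources. Reads assigned to no feature were 5.31% to 13.3% and ambiguous reads 1.1% to 2.32%, and both stayed out of library sizes.

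All 32 libraries entered 1 fit of 8 group means in edgeR 4.0.16 (R 4.3.3) with TMM factors, the default filter on low counts by group and the quasi-likelihood F test. The 15 contrasts share groups. A call is a Benjamini-Hochberg adjusted p under 0.05 over 12332 genes, and intervals are 2 SE to each side. DESeq2 1.42.0, limma 3.58.1, other scalings and filters, a run block and leaving out libraries were alternatives. Library pairs within a group differed by more than sampling noise (48 pairs, chi-square per degree of freedom at least 3.0). Deviations from group means correlated above 0.1 in 24 of 24 same-run pairs of KO-labelled libraries (0.186 to 0.686), so runs pair those libraries. In WT they did so in 15 of 24, among them all 4 pairs of unstimulated with stimulated libraries (0.368 to 0.559) and of XCT790 with CompA libraries (0.17 to 0.492), which the runs therefore pair too.

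Members and gene lists were chosen with earlier results of these data known. Named from each list were up to 3 called genes with the smallest adjusted p in a contrast, and for each member the 5 genes with the highest Pearson correlation. Levels between genes are given per kilobase of merged GENCODE exons, with lengths for 23920 of 24302 genes. Ratios between members had 0.5 added to each count.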

Additional observations from a re-analysis of the deposited data

Results flagged for a closer look

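The effect of stimulation on Nr4a2 differed between genotypes in a test of the difference itself. The interaction was log2 -2.02 ± 0.42 SE (adjusted p = 0.001, edgeR), which is a 12.1-fold rise in WT against a 2.98-fold rise in KO-labelled cells, with a rise in 4 of 4 runs of each genotype. For Nr4a3 the interaction was log2 -1.0 ± 0.25 SE (adjusted p = 0.0046, edgeR), a 10.1-fold against a 5.05-fold rise, again in 4 of 4 runs of each. Before stimulation both genes stood higher in KO-labelled cells, and the unstimulated Nr4a2 value in WT rests on 8 to 31 counts per library. None of the 24 sets of 4 libraries (3 genes in 8 groups) held a library far enough from the others to pass Dixon's 95% critical value, where chance alone passes about 5% of sets.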

How the results depend on the processing

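Of 45 values for the members (3 genes in 15 contrasts, log2), none of the 19 called ones changed sign and 16 stayed called under every alternative run; 3 lost the call and 2 uncalled ones gained it, all of Nr4a1. The genotype difference of Nr4a1 with XCT790 was called with upper-quartile factors (0.70), library totals (0.73), DESeq2 (0.65) and only the groups compared (0.68), and that with CompA with only the groups compared (0.65). With only the groups compared, CompA in KO-labelled cells (0.70, adjusted p = 0.157) and XCT790 against CompA in KO-labelled cells (-0.96, adjusted p = 0.0932) lost the call of Nr4a1. Subtracting the unstimulated share from stimulated WT libraries ended the call of the Nr4a1 genotype difference in stimulated cells, which stayed at 0.67 (adjusted p = 0.0899, edgeR). The subtraction also turned the sign of uncalled values. These were Nr4a2 (-0.37) and Nr4a3 (-0.34) in that comparison and XCT790 in WT (-0.22, -0.25 and -0.42 for Nr4a1, Nr4a2 and Nr4a3). The others were CompA in WT for Nr4a2 (-0.27), the XCT790 interaction (0.26 for Nr4a2, 0.27 for Nr4a3) and the CompA interaction of Nr4a3 (0.17). Other uncalled values that changed sign were Nr4a2 with XCT790 in KO-labelled cells (-0.03 with DESeq2 size factors and with DESeq2, -0.01 with no filter and with only the groups compared), Nr4a3 with XCT790 in WT (-0.06, library totals) and, without KO-labelled run 2, Nr4a2 between genotypes after stimulation (-0.13) and in the XCT790 interaction (0.00).

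Leaving out each replicate in turn gave 0.47 to 0.98 for Nr4a1 with CompA in KO-labelled cells, -1.09 to -0.73 for XCT790 against CompA there, and 0.53 to 0.79 for its genotype difference with XCT790. Uncalled values crossed 0 as follows. Between genotypes after stimulation Nr4a2 ran from -0.18 to 0.31 and Nr4a3 from -0.02 to 0.32, and with XCT790 Nr4a2 from -0.25 to 0.05 and Nr4a3 from -0.11 to 0.04. For XCT790 in WT the ranges were -0.01 to 0.22 (Nr4a1), -0.06 to 0.43 (Nr4a2) and -0.09 to 0.24 (Nr4a3), and in KO-labelled cells -0.36 to 0.02 (Nr4a1) and -0.12 to 0.19 (Nr4a2). For Nr4a2 they were -0.09 to 0.41 with CompA in WT, -0.18 to 0.18 for XCT790 against CompA in WT, -0.41 to 0.07 in the XCT790 interaction and -0.12 to 0.38 in the CompA interaction. All 120 recomputed log2 ratios between members stayed within 1 SD.

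The replicate block (run as a term) changed no call of a member. In KO-labelled cells Nr4a1 was 0.75 with CompA (adjusted p = 0.00217) and -0.96 for XCT790 against CompA (adjusted p = 0.00117), by edgeR. The block raised the number of genes called from 2661 to 4161 for the CompA interaction, besides the 4 counts given with the comparisons within a genotype. In WT the same-run correlation was above 0.1 in 3 of 4 pairs of stimulated with CompA libraries and 2 of 4 of stimulated with XCT790 libraries, so the runs were not taken to pair those. With only the groups compared the counts went from 4454 to 2294 (genotype, unstimulated), 3111 to 1438 (genotype, stimulated), 4161 to 2394 (stimulation interaction), 2378 to 860 (CompA, KO-labelled), 1390 to 240 (XCT790, KO-labelled), 1161 to 2854 and 400 to 73 (XCT790 against CompA, WT and KO-labelled), the last being 615 with DESeq2. With the subtraction they went from 3111 to 744 (genotype, stimulated), 3527 to 836 (XCT790, WT) and 4047 to 2681 (CompA, WT). The stimulation interaction went from 4161 to 916. Interactions of XCT790 and CompA went from 3049 and 2661 to 0 by edgeR, where 329 and 413 genes had an unadjusted p under 0.05. The 119 genes behind the share were chosen by their low level with the compounds, so these falls are not independent of that choice. Single libraries moved counts too: 4161 to 2669 without unstimulated WT library 1, 2661 to 1772 without stimulated WT library 2, 1390 to 887 and 771 without KO-labelled stimulated library 1 and XCT790 library 3, 1161 to 751 and 749 without WT XCT790 libraries 1 and 3, and 400 to 186, 228 and 265 without KO-labelled CompA library 4 and XCT790 libraries 1 and 3. The genotype counts went from 1173 to 750, 735 and 660 without KO-labelled XCT790 library 3 and WT XCT790 libraries 1 and 3, and from 950 to 626, 586, 549 and 591 without KO-labelled CompA library 3 and WT CompA libraries 1, 3 and 4. Library totals moved the median of all genes by 0.21 (genotype, unstimulated), -0.33 (stimulation, KO-labelled), -0.24 (stimulation interaction) and 0.12 (CompA interaction), and upper-quartile factors by -0.23 and -0.26 in the stimulation contrasts of WT and KO-labelled cells. Except where an alternative holds fewer samples or genes, the cause was not tested. Counts of 8 to 31 per library limit the precision of Nr4a2 in unstimulated WT cells.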
